A study of Mus musculus with 6 samples.

Results

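The genes described here guide and equip the cells that build limb muscle: the cue genes Hgf and Cxcl12, and the precursor genes Met, Cxcr4, Gab1, Lbx1 and Pax3. They were chosen by symbol, as every probe set whose platform annotation gives exactly 1 symbol equal to one of these 7 names. That gave 17 of 45037 probe sets tested, and 7 of 18193 genes, with 6 probe sets for the cues and 11 for the precursor genes. Expression arrays were made from 3 pools of Lmx1b-null mouse embryos (Lmx1b -/-, strain 129Sv) and 3 pools of wild-type 129Sv embryos, all at embryonic stage E11.5 and with no treatment named in the labels. Each pool joined both hindlimb buds of 3 embryos, 6 buds in all, cut to a proximal piece of about 500 µm, and was read on 1 array. LMX1B is the LIM homeodomain factor that gives limb mesenchyme its dorsal identity, and the study asked which genes it controls in the hindlimb bud. The labels name no tissue restriction of the mutation, and each value is a mean over 3 embryos and over all cells of the piece.

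Limb muscle does not arise in the limb. Its precursors leave the lateral edge of the somites, where PAX3 keeps them proliferating and switches on the receptor gene Met, and they detach when hepatocyte growth factor, made by limb mesenchyme, binds MET. GAB1 is the adaptor that carries the MET signal inward, and mice without Hgf, Met or Gab1 have lost or reduced limb muscle. LBX1, a homeobox factor of the migrating cells, is needed for their path into the limb. CXCL12, a chemokine of the mesenchyme, draws CXCR4-bearing precursors to their places. None of these genes belongs to muscle cells alone: Cxcr4 and Cxcl12 are also used by blood vessels, Met by epithelia and motor neurons, Pax3 by neural crest, and Gab1 by most cells.

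Promoter sequence next to the start was taken from the RefSeq table of build GRCm38.p6, in which 5 of the 7 genes matched, with 7 windows of 250 bases before the start. The windows of Cxcl12, on the plus strand at chr6:117168335-117168534, and of Cxcr4, on the minus strand at chr1:128592300-128592499, are shown because this ligand and its receptor are the pair whose brightest probe sets stood higher in all 3 null pools than in any wild-type pool. That of Met, on the plus strand at chr6:17463757-17463956, is shown for contrast, as a receptor gene whose 2 probe sets stood almost level. Each run holds the 200 bases before the start, 5′ to 3′ on the gene's strand, and capitals mark CCGCCC or its complement (the GC box read by SP factors), TATAAA (the TATA box) and CACGTG (a palindromic E-box).
Cxcl12: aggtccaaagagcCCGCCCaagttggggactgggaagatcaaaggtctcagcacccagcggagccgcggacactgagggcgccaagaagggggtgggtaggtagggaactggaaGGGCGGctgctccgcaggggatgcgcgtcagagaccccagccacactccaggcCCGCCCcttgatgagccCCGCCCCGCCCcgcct
Cxcr4: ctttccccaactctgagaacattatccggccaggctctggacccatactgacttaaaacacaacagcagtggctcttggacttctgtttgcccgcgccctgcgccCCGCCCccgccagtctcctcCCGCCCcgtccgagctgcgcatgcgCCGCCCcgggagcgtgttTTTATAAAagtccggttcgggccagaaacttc
Met: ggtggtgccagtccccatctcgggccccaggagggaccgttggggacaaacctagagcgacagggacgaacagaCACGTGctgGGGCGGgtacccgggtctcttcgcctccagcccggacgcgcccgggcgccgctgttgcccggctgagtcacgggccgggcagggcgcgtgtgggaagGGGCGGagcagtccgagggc
On both strands of the 250-base windows, CCGCCC occurred 5 times for Cxcl12, 3 times for Cxcr4 and 3 times for Met, with a pair of the Cxcl12 matches sharing a base and 1 of the Met matches outside the bases shown, and 32.7% of all 32851 promoter windows hold it. TATAAA was present for Cxcr4, once on each strand of one overlapping stretch, and is in 12.4% of windows. CACGTG occurred once, for Met, and is in 6.02% of windows. TAATTA, the A/T-rich core that LIM homeodomain factors such as LMX1B bind, was in 0 of the 7 windows of Hgf, Met, Cxcl12, Cxcr4 and Gab1, and is in 4.84% of all windows. These are letter matches within a short window and say nothing of binding.

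The Lmx1b transcript checked the labels. Its brighter probe set read 4.62, 4.23 and 4.57 in null pools 1 to 3, against 8.02, 7.58 and 8.17 in wild-type pools 1 to 3, a change of -3.45 (SE 0.16; limma adjusted p = 0.000544), while the dim one stood at 3.92 and 3.93. The limb mesenchyme genes Tbx4 (10.20 in null and 10.49 in wild-type pools) and Prrx1 (11.07 and 11.20) were bright in both groups. All values are log2 values made by RMA, the robust multi-array average, with 1 unit a doubling. A change is the null mean minus the wild-type mean, with the standard error (SE) and 95% interval of a limma fit to all probe sets. Levels of different probe sets are not compared as amounts of RNA, because probes differ in brightness. Words such as bright and dim only place a probe set among the others on the array. The pools were not alike in other respects. Xist, which is transcribed from the inactive X chromosome of females, read 9.66, 9.16 and 10.79 in null pools 1 to 3, against 4.68, 9.88 and 4.72 in wild-type pools 1 to 3. Only wild-type pool 2 lay within the range of the null pools, so Xist and genotype largely go together. Changes from fits that include the Xist level, given below, therefore rest mainly on that wild-type pool and cannot separate the 2. Wild-type pool 3 also stood apart in hypoxia and glycolysis genes, and wild-type pool 1 in muscle genes, as given below.

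Across the 17 probe sets, none passed an adjusted p of 0.05 in the limma fit, where 0.0844% of all probe sets passed (38 of 45037). An unadjusted p under 0.05 was reached by 4 of the 17, against 9.41% of all probe sets: 3 of them higher, against 5.22% of all, and 1 lower, against 4.2%. The null pools lay wholly above the wild-type pools in 3 probe sets, 1 each of Cxcl12, Cxcr4 and Lbx1, against 8.62% of all probe sets, and wholly below in 1, of Gab1, against 5.78%. In the remaining 13 the groups overlapped, and 14.4% of all probe sets had groups that did not. Changes ran from -0.34 to 0.32, with 8 probe sets higher, 9 lower and a median of -0.0048, beside 55.5% higher and a median of 0.01 over all probe sets. The 38 probe sets that passed had changes of at least 0.51 in size, so every change among the 17 was smaller than any that passed, and a count of 0 does not show that these genes were unaffected. The 6 cue probe sets had a median change of 0.08 and the 11 precursor probe sets one of -0.01. The cue median joins 2 genes with opposite medians, -0.31 for Hgf and 0.20 for Cxcl12, and describes neither. With 1 pool left out at a time, the cue median ran from 0.01, without wild-type pool 3, to 0.10. The precursor median ran from -0.01 to 0.08, highest without wild-type pool 1, so its sign depended on single pools. In the widest of the 17 intervals the change could be as large as -0.77. In bulk tissue a different number of cells of a type and a different amount of RNA per cell cannot be told apart.

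**Figure D1:**
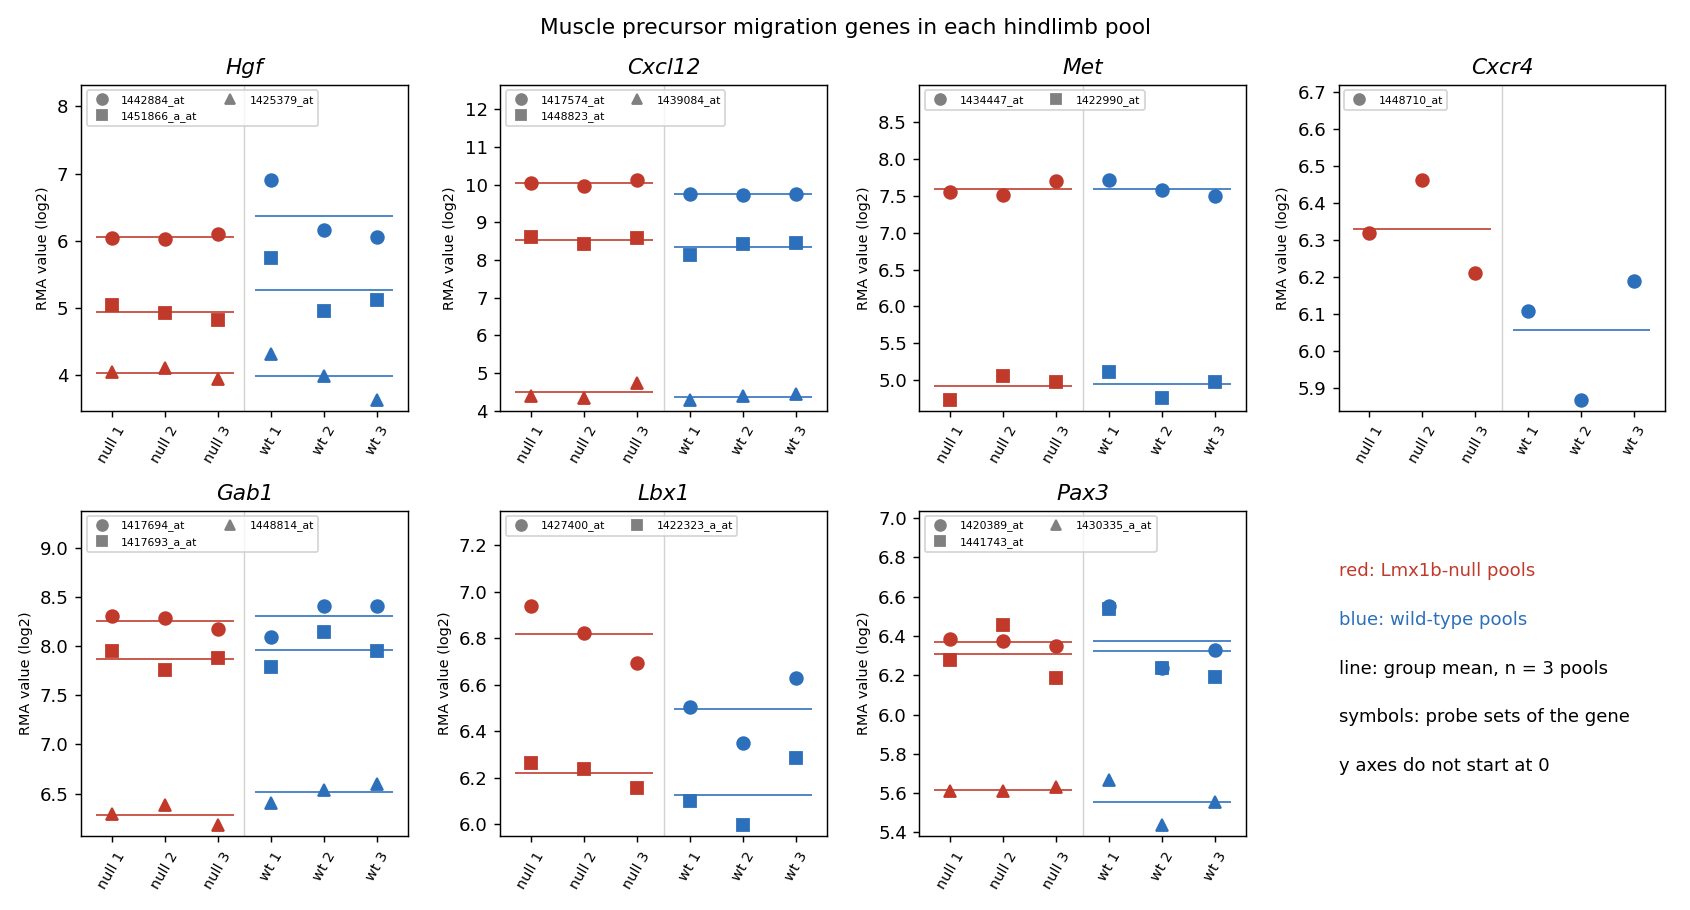
Log2 RMA value of each probe set (symbols) of the 7 genes in each pool, with Lmx1b-null pools in red and wild-type pools in blue and lines at group means (n = 3 pools each). Cxcr4 and the brightest probe sets of Cxcl12 and Lbx1 are higher in all null pools than in any wild-type pool, and wild-type pool 1 is the highest pool in all 3 Hgf probe sets.

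Of the 2 cues, Cxcl12 was the one that stood higher in null pools. Its brightest probe set, 1417574_at, is among the brightest on the array, above 96.3% of probe sets by mean level. It read 10.04, 9.96 and 10.11 in null pools 1 to 3, against 9.75, 9.72 and 9.74 in wild-type pools 1 to 3. Every null pool was above every wild-type pool, and the wild-type pools lay close together. The means were 10.04 ± 0.08 and 9.74 ± 0.01 (SD, n = 3 pools each), a change of 0.30 or 1.23-fold (SE 0.07, interval 0.15 to 0.46). The unadjusted limma p was 0.00201 and the adjusted p 0.226, so the difference did not pass over all probe sets. Its p ranked 400th of 45037.

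The other Cxcl12 probe sets leaned the same way with overlap. Probe set 1448823_at read 8.60, 8.42 and 8.58 in null pools 1 to 3, against 8.12, 8.43 and 8.45 in wild-type pools 1 to 3. Wild-type pool 1 was the low one, and null pool 2 was close to the other two wild-type pools. The change was 0.20 (SE 0.10; limma adjusted p = 0.587), and 0.09 both when wild-type pool 1 was left out and when the fit included the Xist level. The dim 1439084_at, at 4.39, 4.33 and 4.72 in null pools and 4.29, 4.38 and 4.43 in wild-type pools 1 to 3, had a change of 0.11 (adjusted p = 0.779) that rested on null pool 3, and was at -0.01 without that pool.

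Hgf, the gene of the growth factor that frees the precursors, pointed the other way in 2 of 3 probe sets, but mainly through a single pool. In 1442884_at the null pools 1 to 3 read 6.04, 6.03 and 6.11, against 6.90, 6.15 and 6.06 in wild-type pools 1 to 3. Wild-type pool 1 was the highest by far, and wild-type pool 3 lay inside the range of the null pools. The means were 6.06 ± 0.04 and 6.37 ± 0.46 (SD, n = 3 each), a change of -0.31 (SE 0.20, interval -0.77 to 0.14; limma adjusted p = 0.657). In 1451866_a_at the values were 5.05, 4.93 and 4.83 in null pools, against 5.75, 4.95 and 5.12 in wild-type pools 1 to 3, a change of -0.34 (SE 0.19; adjusted p = 0.606). Wild-type pool 1 was again the outlying pool. When it was left out these changes were -0.05 and -0.10, and when the fit included the Xist level they were -0.12 and -0.02. The dimmest, 1425379_at, read 4.05, 4.10 and 3.95 in null pools and 4.32, 3.99 and 3.64 in wild-type pools 1 to 3, so that the wild-type values spread around the null ones. Its change was 0.05 (adjusted p = 0.948). It was 0.22 when wild-type pool 1 was left out and -0.13 when wild-type pool 3 was.

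**Figure D2:**
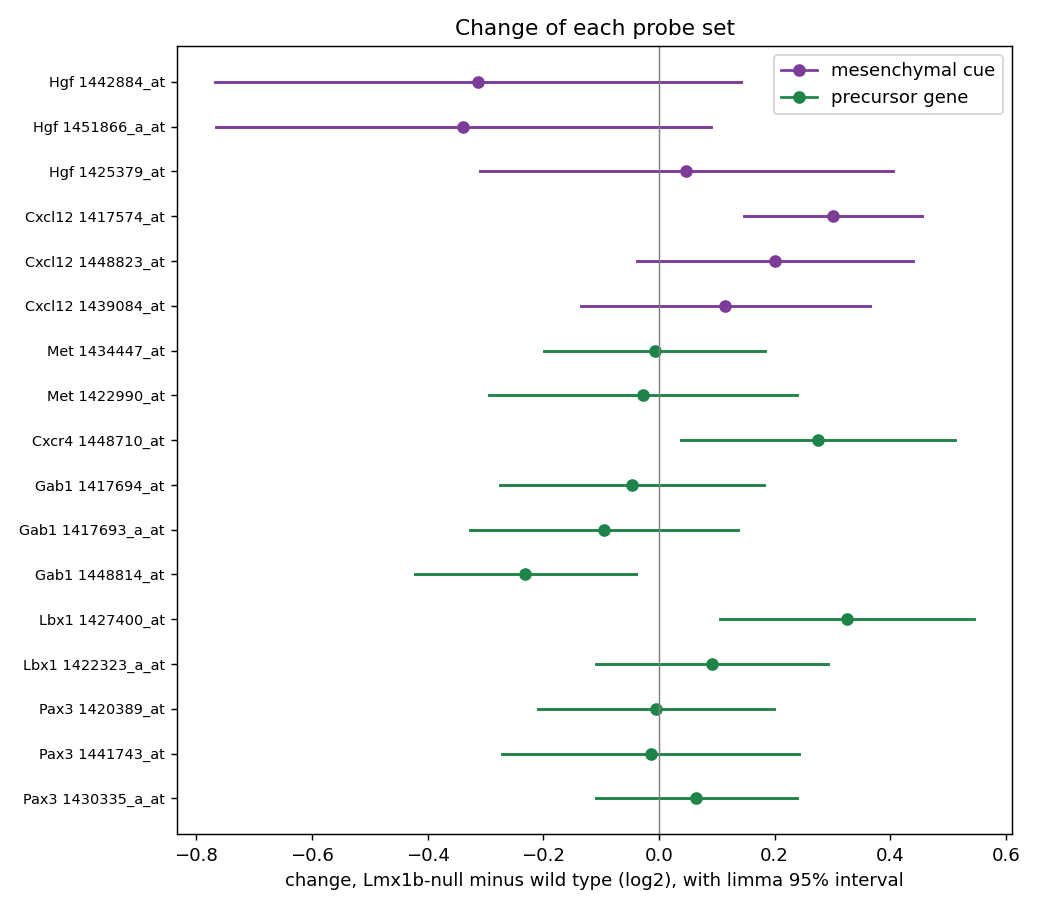
Change of each probe set, in log2 units as Lmx1b-null minus wild type (points), with the 95% interval of the limma fit (lines, 3 pools a side), for cues in purple and precursor genes in green. The interval lies above 0 for 1 Cxcl12 probe set (0.15 to 0.46), 1 Lbx1 probe set (0.10 to 0.54) and Cxcr4 (0.04 to 0.51), below 0 for 1 Gab1 probe set (-0.42 to -0.04), and spans 0 in the other 13; no probe set passes after adjustment.

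Of the 2 receptor genes, Cxcr4 stood higher in null pools and Met was level in them. Cxcr4, the receptor of CXCL12, has 1 probe set, which read 6.32, 6.46 and 6.21 in null pools 1 to 3, against 6.11, 5.87 and 6.19 in wild-type pools 1 to 3. All null values were above all wild-type values, though null pool 3 and wild-type pool 3 were nearly level. The means were 6.33 ± 0.12 and 6.06 ± 0.17 (SD, n = 3 each), a change of 0.27 or 1.21-fold (SE 0.10, interval 0.04 to 0.51). The unadjusted p was 0.0284 and the limma adjusted p 0.477. The change was 0.18 without wild-type pool 2, the lowest pool, and 0.48 when the fit included the Xist level (adjusted p = 0.731 and 0.502).

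Met, the HGF receptor gene, had 2 probe sets. Its brighter probe set, 1434447_at, read 7.55, 7.51 and 7.69 in null pools 1 to 3, against 7.71, 7.58 and 7.50 in wild-type pools 1 to 3. The ranges overlapped almost entirely. The change was -0.01 (SE 0.08, interval -0.20 to 0.18; limma adjusted p = 0.986). The dimmer 1422990_at read 4.74, 5.07 and 4.97 in null pools and 5.12, 4.77 and 4.98 in wild-type pools 1 to 3, with a change of -0.03 (interval -0.29 to 0.24). Both signs turned in several alternatives and carry no direction.

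For Gab1, the adaptor downstream of MET, 1 of 3 probe sets separated the groups. In 1448814_at the null pools 1 to 3 read 6.29, 6.38 and 6.18, against 6.40, 6.54 and 6.60 in wild-type pools 1 to 3. Every null pool was below every wild-type pool, by little between null pool 2 and wild-type pool 1. The change was -0.23 (SE 0.08, interval -0.42 to -0.04; unadjusted p = 0.0233, limma adjusted p = 0.458). The brighter 1417694_at read 8.31, 8.28 and 8.17 in null pools and 8.09, 8.41 and 8.41 in wild-type pools 1 to 3, and 1417693_a_at read 7.95, 7.76 and 7.88 in null pools and 7.79, 8.14 and 7.95 in wild-type pools 1 to 3. In both, wild-type pool 1 lay low among the wild-type pools and the groups overlapped. Their changes were -0.05 (adjusted p = 0.918) and -0.10 (adjusted p = 0.807). Both sizes depended on single wild-type pools: without pool 1 they were -0.15 and -0.18, and without pool 2 they were 0.01 and -0.0043. Adding Xist to the model gave -0.13 and -0.28.

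Of the transcription factors, Lbx1 had the highest change of all 17 probe sets. Its brighter probe set, 1427400_at, read 6.94, 6.82 and 6.69 in null pools 1 to 3, against 6.50, 6.35 and 6.63 in wild-type pools 1 to 3. The null pools were all above the wild-type pools, with null pool 3 close to wild-type pool 3. The means were 6.82 ± 0.12 and 6.49 ± 0.14 (SD, n = 3 each), a change of 0.32 or 1.25-fold (SE 0.10, interval 0.10 to 0.54; unadjusted p = 0.00926, limma adjusted p = 0.371). The second probe set, 1422323_a_at, read 6.26, 6.24 and 6.15 in null pools and 6.10, 5.99 and 6.28 in wild-type pools 1 to 3. There wild-type pool 3 was the highest of all 6, and the change was 0.09 (SE 0.09; adjusted p = 0.781). It was 0.03 without wild-type pool 2, 0.17 without wild-type pool 3 and 0.23 when Xist was added to the model. With Xist in the model the change of 1427400_at was 0.48 (limma adjusted p = 0.588). The 2 probe sets of 1 gene thus gave unlike sizes, and whether they read the same transcripts was not known here.

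Pax3, the paired-box factor at the head of this programme, was level in all 3 probe sets. In 1420389_at the null pools 1 to 3 read 6.38, 6.37 and 6.35, against 6.55, 6.24 and 6.33 in wild-type pools 1 to 3. The null pools were tightly grouped inside the wild-type range. The change was -0.0048 (interval -0.21 to 0.20; limma adjusted p = 0.991). The others had changes of -0.01 (1441743_at, interval -0.27 to 0.24) and 0.06 (1430335_a_at, interval -0.11 to 0.24). Wild-type pool 1 was the highest of the 6 pools in all 3 probe sets. Without it the Pax3 changes were 0.08, 0.09 and 0.12, still none past the threshold. The change of 1430335_a_at was 0.01 without wild-type pool 2.

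**Figure D3:**
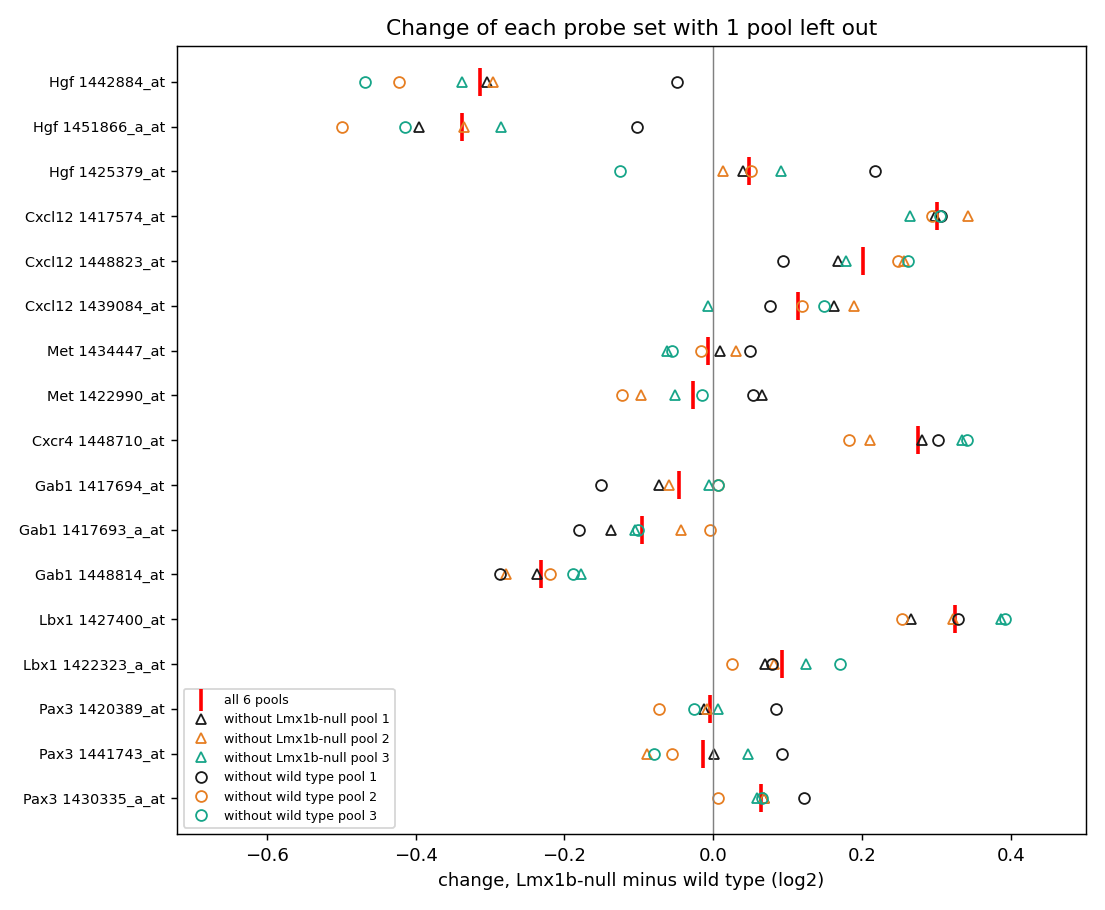
Change of each probe set, in log2 units as Lmx1b-null minus wild type, with all 6 pools (red bars) and with 1 pool left out (triangles for null pools, circles for wild-type pools, coloured by pool number). Both brighter Hgf probe sets move close to 0 without wild-type pool 1, while the brightest Cxcl12 probe set stays between 0.26 and 0.34 whichever pool is left out.

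With 1 pool left out at a time, the brightest Cxcl12 probe set kept a change between 0.26 and 0.34, Lbx1 1427400_at between 0.25 and 0.39, Cxcr4 between 0.18 and 0.34 and Gab1 1448814_at between -0.29 and -0.18. No probe set of the 7 genes passed in any of those fits. The lowest adjusted p among all alternatives was 0.0701, for Cxcl12 1417574_at when limma's variance prior followed intensity; over the alternatives its adjusted p reached 0.748, when the fit included the Xist level and the change was 0.29.

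The rest of the migration machinery showed no change past the threshold either. These lists were read at 1 probe set per gene, where 0.104% of 18193 genes passed, 5.92% had an unadjusted p under 0.05 and were higher, and 3.88% had one and were lower. Of all genes 57.0% were higher in null pools, the share beside which each count of higher and lower genes below stands. Among 22 measured genes of the HGF and MET pathway, 12 were higher, 10 lower and 0 passed, with a median change of 0.00 beside 0.02 for all genes; 4 had an unadjusted p under 0.05, all higher. Spint1, which encodes an inhibitor of the protease that activates HGF, had the smallest p, at 5.80, 5.86 and 5.66 in null pools and 5.52, 5.56 and 5.46 in wild-type pools 1 to 3 (change 0.26, limma adjusted p = 0.33). Cd44, whose surface protein can act as a co-receptor of MET, followed at 0.26 (adjusted p = 0.402). In these 2 genes the null pools lay above the wild-type pools. Spint1 is also a gene of surface ectoderm, whose markers are given below. Of 11 measured genes around CXCL12 and CXCR4, 6 were higher and 5 lower, with a median of 0.00. Rgs16, a brake on G-protein signalling, read 6.30, 6.16 and 6.22 in null pools and 5.70, 5.89 and 5.91 in wild-type pools 1 to 3 (change 0.39, adjusted p = 0.181). Gnai3, a G-protein subunit gene, was next at -0.14 (adjusted p = 0.577). Ackr3, the second CXCL12 receptor gene, which clears the chemokine, was level as an example, with a change of -0.02.

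Of 15 other regulators of migrating precursors, 11 were higher and 4 lower, 0 passed and 3 had an unadjusted p under 0.05, all higher. The median change was 0.05, and ran from 0.04 to 0.09 with 1 pool left out, highest without null pool 3. Meox1, a homeobox gene of somites, read 7.86, 7.63 and 7.81 in null pools and 7.04, 7.43 and 7.32 in wild-type pools 1 to 3. All null pools were above the wild-type pools, with a change of 0.50 (limma adjusted p = 0.231). Fgfr4, an FGF receptor gene of limb muscle precursors, had a change of 0.27 (adjusted p = 0.375). As an example, Meox2, needed for limb muscle, was at 0.25 (adjusted p = 0.393), and Six4, a homeobox activator of Pax3 and Lbx1, was at 0.00.

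Markers of committed myoblasts, the stage after arrival, were higher in 14 of 14 genes, of which 0 passed and 5 had an unadjusted p under 0.05; the median change was 0.32. Msc, the muscle repressor gene musculin, had a change of 0.78 (limma adjusted p = 0.15) and Cdh15, the muscle cadherin gene, one of 0.35 (adjusted p = 0.281). Myf5, an early myogenic regulator, was at 0.02 as an example. The mean level of the list was 6.55, 6.46 and 6.59 in null pools and 5.93, 6.49 and 6.26 in wild-type pools 1 to 3. Wild-type pool 1 was the lowest and wild-type pool 2 lay within the null range. The list's median change was 0.15 without wild-type pool 1 and 0.05 when the fit included the Xist level, settings chosen after seeing the data. Among the wild-type pools, pool 2 was the lowest in Lbx1 and pool 1 was the highest in Pax3. In wild-type pools 1 to 3, Msc read 7.14, 7.72 and 7.45, and Cdh15 read 5.88, 5.88 and 6.16. The part of muscle content in the Lbx1 and Cxcr4 values was not tested.

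**Figure D4:**
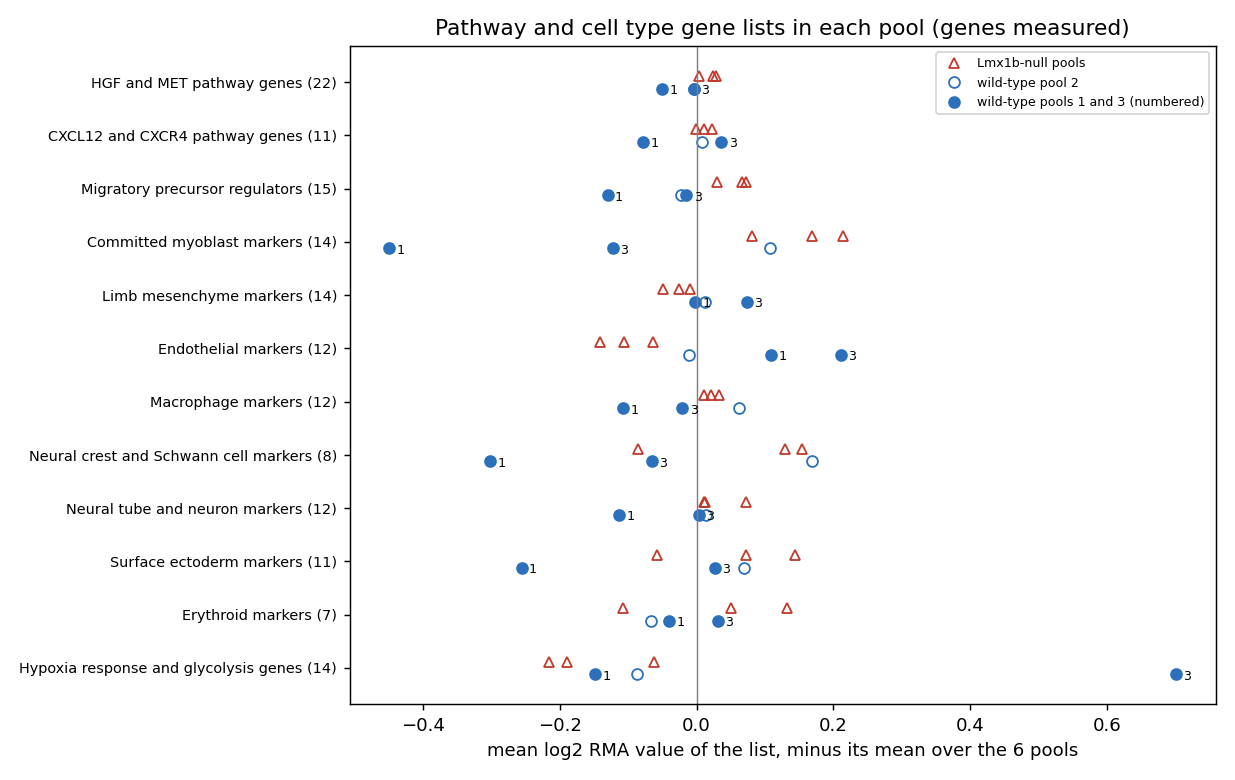
Mean log2 RMA value of each gene list in each pool, minus the list's mean over the 6 pools, for Lmx1b-null pools (red triangles) and wild-type pools (blue circles, pools 1 and 3 filled and numbered). Wild-type pool 1 is the lowest in committed myoblast markers (5.93) and wild-type pool 3 the highest in hypoxia and glycolysis genes (8.70).

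Other cells that can carry these transcripts were read by their own markers. Endothelial markers were lower in 12 of 12 genes, 0 of them past the threshold, with a median change of -0.17. Their mean level ran from 6.50 to 6.58 in null pools and from 6.63 to 6.86 in wild-type pools, and 0 of them lay below 3.33, the lower quartile of all probe sets, in every pool. Tek (-0.65, limma adjusted p = 0.0849) and Kdr (-0.22, adjusted p = 0.496), both receptor genes of blood vessels, had the smallest p. Their median was -0.09 when Xist was added to the model. Macrophage markers, relevant to Cxcr4, were higher in 8 of 12 genes with a median of 0.06, and their mean level was 4.84 to 4.86 in null pools and 4.72 to 4.89 in wild-type pools; Fcgr1 (0.17) and Cx3cr1 (0.13) had the smallest p. Hypoxia and glycolysis genes, a programme known to act on Cxcr4 and Met in other cells, were lower in 13 of 14, led by Ldha (-0.39) and Pdk1 (-0.50). Their mean level was 7.79 to 7.94 in null pools and 7.85, 7.92 and 8.70 in wild-type pools 1 to 3, and their median change of -0.33 was 0.01 without wild-type pool 3, -0.50 without wild-type pool 1 and -0.13 when Xist was added to the model. In wild-type pools 1 to 3, Cxcr4 read 6.11, 5.87 and 6.19. Met read 7.71, 7.58 and 7.50 in 1434447_at and 5.12, 4.77 and 4.98 in 1422990_at. The part of hypoxia in these values was not tested.

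Neural crest and Schwann cell markers, relevant to Pax3, were higher in 6 of 8 measured genes, with a median of 0.11 and a mean level of 5.33 to 5.57 in null pools and 5.11 to 5.58 in wild-type pools. Ngfr (0.47, limma adjusted p = 0.316) and Erbb3 (0.22) had the smallest p, and 1 of the 8 lay below the lower quartile in every pool. Neural tube and neuron markers were higher in 10 of 12 (median 0.08), with mean levels of 3.87 to 3.94 in null pools and 3.75 to 3.88 in wild-type pools. Foxa2 (0.20) and Lhx1 (0.19) led them, and 5 of the 12, Lhx1 among them, were below the lower quartile in every pool. Both leading genes were dim, with means of 3.30 and 3.10 in null pools and 3.10 and 2.91 in wild-type pools. Surface ectoderm markers, relevant to Met, were higher in 9 of 11 (median 0.11), led by Epcam (0.22) and Krt15 (0.50), with mean levels of 6.47 to 6.67 in null pools and 6.27 to 6.60 in wild-type pools. Erythroid markers were higher in 5 of 7 (median 0.05), led by Hbb-y (0.11) and Alas2 (0.18), at 8.21 to 8.45 in null pools and 8.25 to 8.35 in wild-type pools. Markers of limb mesenchyme, which makes both cues, were higher in 6 and lower in 8 of 14 (median -0.04), led by Tbx18 (-0.40) and Tbx4 (-0.29). Their mean level was 9.527 to 9.567 in null pools and 9.575 to 9.650 in wild-type pools. With 1 pool left out at a time, the median of the neural crest and Schwann cell list ran from 0.01 without wild-type pool 1 to 0.22 without wild-type pool 2. The macrophage median ran from -0.01 to 0.13 and the surface ectoderm median from 0.05 to 0.15, lowest and highest without those same pools. The erythroid median ran from -0.03 without null pool 1 to 0.12 without null pool 3, and the limb mesenchyme median from -0.11 without null pool 2 to -0.02 without null pool 3. Adding Xist to the model gave medians of -0.06 for neural crest and Schwann cell, -0.02 for macrophage, 0.02 for neural tube and neuron, 0.05 for surface ectoderm, 0.11 for erythroid and -0.03 for limb mesenchyme markers. An unadjusted p under 0.05 was reached by 3 lower and 1 higher mesenchyme genes, 3 higher ectoderm genes and 0 erythroid genes. The macrophage, neural crest and neural tube lists each had 1 higher gene under it. The endothelial list and the hypoxia and glycolysis list each had 3 lower genes under it. Over all genes the shares were 5.92% higher and 3.88% lower. In all of these lists 0 genes passed, and their part in the values of the 7 genes was not tested.

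The genes nearest in profile to Cxcl12 and Lbx1 over the 6 arrays were also looked up. With so many genes and only 6 values each, close matches are bound to be found, so nearness is a description and shows no shared control. Likeness was measured as the root mean square difference between profiles centred on their own means, over the 10994 other genes with a mean at or above the median of all probe sets. Cxcl12, whose own profile deviated from its mean by 0.16, was most like Coq8a (0.03), a mitochondrial coenzyme Q gene, then P2rx6 (0.04), an ATP-gated channel gene, and Slc36a3 (0.04), a gene of an amino acid transporter family. For Lbx1, with an own deviation of 0.19, the nearest were Krt19 (0.05), a keratin gene, Myorg (0.05), a glycosidase gene, and Fgfr4 (0.06). Fgfr4 read 5.92, 5.80 and 5.74 in null pools and 5.49, 5.49 and 5.68 in wild-type pools 1 to 3, highest in null pool 1 as Lbx1 was. For Hgf, looked up after its values were seen, Cep162, Mnd1 and Fndc3c1 were nearest (0.07, 0.07 and 0.09 against an own deviation of 0.31), all with wild-type pool 1 as the highest pool. A shared highest pool, here and for Fgfr4, follows from choosing genes by profile and is no separate observation.

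Pax3 and Cxcr4 both lie on chromosome 1, and their neighbours were read to see whether they stood alone. Among the 5 measured genes on each side of Pax3, Epha4, an ephrin receptor gene and the nearest measured one on its side, was at 7.83, 8.15 and 7.81 in null pools and 8.39, 8.55 and 8.43 in wild-type pools 1 to 3 (change -0.53, unadjusted p = 0.000871, limma adjusted p = 0.167). Obsl1, a cytoskeletal adaptor gene, had a change of 0.18 (unadjusted p = 0.0471). The other 8 had larger p. Around Cxcr4 none of the 10 neighbours had an unadjusted p under 0.05, and their changes ran from -0.09 to 0.10 beside 0.27 for Cxcr4.

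**Figure D5:**
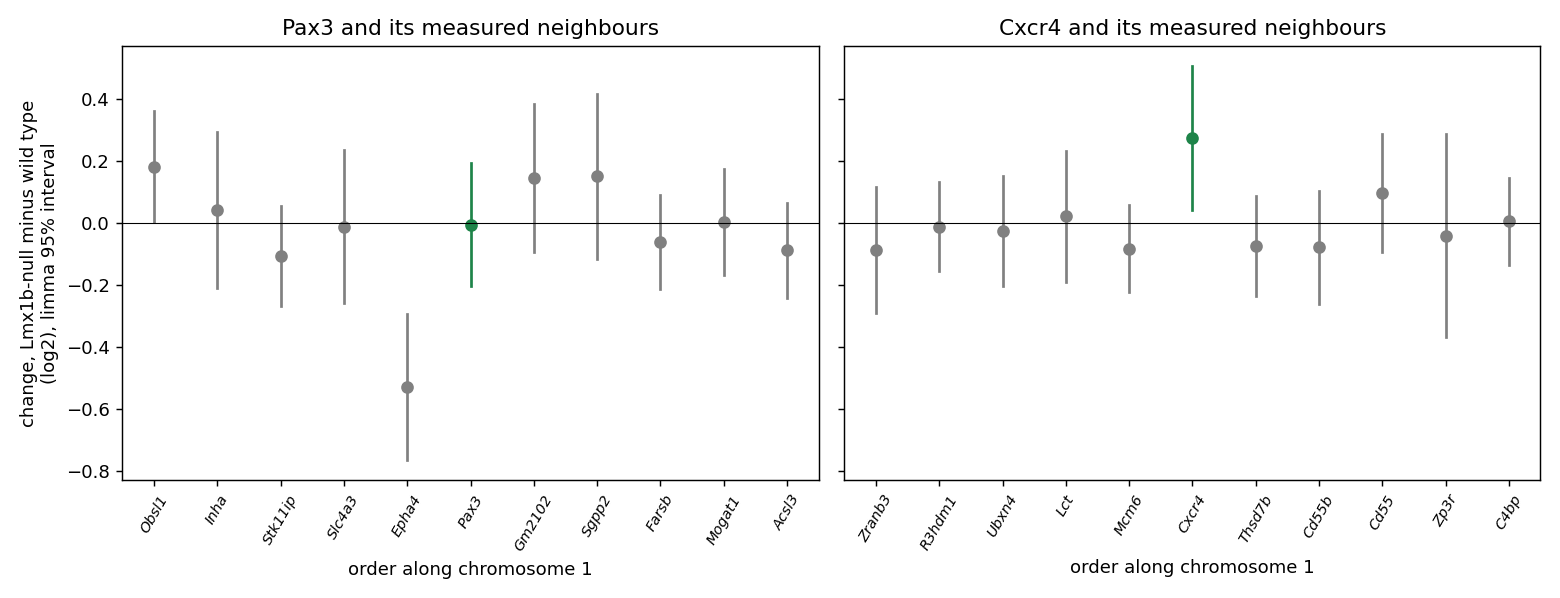
Change of Pax3 (left) and Cxcr4 (right), in green, and of the 5 measured genes on each side, in grey, in log2 units as Lmx1b-null minus wild type with the limma 95% interval, in RefSeq gene order along chromosome 1. Epha4 stands below 0 (-0.53) next to a level Pax3, and Cxcr4 (0.27) lies above all of its neighbours.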

How the data were processed

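Messenger RNA of 6 pools was measured on 1 array each. The authors deposited log2 values per probe set made with RMA, per the submitters' processing notes; the base follows from their range, since no label states it, and no version of RMA is given in the sources at hand. RMA makes array distributions near equal, so a shift of most transcripts would not be seen, and it compresses folds of dim probe sets. Of 45101 probe sets, 64 controls were left out. Of the rest, 34945 had 1 symbol in the platform annotation, 932 several and 9160 none; the identifiers of 34741 were found in a RefSeq table (GRCm38.p6) and 0 symbols changed.

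Null and wild-type pools were compared by limma 3.58.1 under R 4.3.3 (lmFit and eBayes without trend or robust option), two-sided, with Benjamini-Hochberg adjustment over all probe sets, or over 18193 genes at the brightest probe set each. The fit was tested on simulated data, where changes as small as those of the 7 genes rarely passed (1% of changes of 0.3 were recovered). The simulated noise was independent between probe sets and held none of the pool differences given above, so the real rate can differ. With 3 pools against 3 an exact permutation test cannot go below 0.1. Deviations of same-numbered pools correlated at -0.239, -0.088 and -0.168, so no pairing by number was seen and the main fit used none. With 3 pools a side these values cannot exclude a pairing. Correlations between arrays ran from 0.993 to 0.997.

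The 7 genes and the 12 lists (161 genes, 152 measured) were chosen with earlier results of these data known. Named from each list are members past the threshold and the 2 with the smallest p; others are called examples. Also named are the 3 genes nearest in pattern to Cxcl12 and Lbx1, and those of 5 chromosome neighbours a side of Pax3 and Cxcr4 with an unadjusted p under 0.05. Alternatives changed the variance model, normalization, probe set filters, threshold and pools, or added Xist or a pool block.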

Additional observations from a re-analysis of the deposited data

How the results depend on the processing

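The 7 genes had 0 probe sets past the threshold in all 17 alternatives, a range of 0 to 0 with 1 pool left out. Over all features 38 probe sets and 19 genes passed. Counts stayed near these with the robust option (38 and 19), arrays centred on their medians (42 and 19) and repeated quantile normalization (37 and 16). Without _x_at and _s_at probe sets they were 39 and 20. Larger moves came from other settings. An intensity trend gave 94 and 36, array weights 69 and 36, the Xist level as a covariate 9 and 5, an adjusted p under 0.1 gave 99 and 47, a 2-fold requirement 17 and 9, and bright probe sets alone 20 probe sets (with 16 genes). The pool number as a replicate block gave 14 and 9, of which 12 and 7 were shared, and changed no call among the 7 genes. Leaving out 1 pool gave 13 to 38 and 4 to 37, lowest without null pool 1 and highest without wild-type pool 1. The median change of the 17 probe sets was 0.0943 with Xist, and -0.0146 to 0.0786 with 1 pool left out, highest without wild-type pool 1.

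Of 252 changes recomputed for single probe sets, 229 kept their direction and 23 reversed, none of them past the threshold. Met 1422990_at was at 0.0126 with array weights and 0.15 with Xist, and Met 1434447_at at 0.0207 after repeated quantile normalization. Pax3 1420389_at was at 0.040, 0.0198 and 0.127, and Pax3 1441743_at at 0.0183, 0.0116 and 0.103, with array weights, repeated quantile normalization and Xist. With 1 pool left out, Met 1434447_at ran from -0.0619 to 0.0491, Met 1422990_at from -0.122 to 0.0652, Pax3 1420389_at from -0.0727 to 0.0846, Pax3 1441743_at from -0.0896 to 0.0928, Gab1 1417694_at from -0.152 to 0.0063, Hgf 1425379_at from -0.125 to 0.217 and Cxcl12 1439084_at from -0.0069 to 0.189. The cause was not tested. The number of arrays limits the precision.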
